A study of Mus musculus with 10 samples.

Results

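The 8 genes described here encode the catalytic subunits of the proteasome and the subunits of its PA28 activator. They are the interferon-inducible catalytic subunits Psmb8 (β5i), Psmb9 (β1i) and Psmb10 (β2i), the constitutive subunits Psmb5 (β5), Psmb6 (β1) and Psmb7 (β2) that these replace, and the activator subunits Psme1 (PA28α) and Psme2 (PA28β). They were chosen by name, and all 8 were found among the 48476 genes of the table of the series. The study asked what FoxO6, a forkhead transcription factor, does to the reprogramming of fibroblasts to pluripotency. Mouse embryonic fibroblasts (MEFs) from E13.5 embryos of the strain CBA/CaJ X C57BL/6J, which per the study's methods carry an Oct4-GFP reporter, were infected with retroviruses made in PlatE cells and cultured in iCD1 medium. All cells received the reprogramming factors Oct4, Klf4 and Sox2 (OKS). The control arm also received DR, the red fluorescent protein DsRed (OKS+DR), and the other arm received FoxO6 (OKS+FoxO6), in both cases as an overexpressed retroviral transgene. Bulk RNA-seq was made from 1 library per arm at each of days 0, 1, 3, 5 and 7, which gives 10 libraries and no replicates.

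The proteasome is the barrel-shaped protease that degrades ubiquitin-tagged proteins, and its cutting sites lie on the β1, β2 and β5 subunits. In cells exposed to interferon, newly built barrels take up β1i, β2i and β5i at those sites, and the product is called the immunoproteasome. It favours peptides that fit MHC class I molecules, and PA28, a ring that caps the barrel, is induced by interferon as well. Fibroblasts in culture mostly carry the constitutive form.

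The libraries held between 1208379 and 2225750 expected counts, RSEM's estimates of the reads per gene, and the counts below are given as reads. Foxo6 checked the labels of the arms, with 0.61 to 2.29 TPM (RSEM's level per transcript length, scaled to the same total in every library) in OKS+DR and 762.11 to 1356 TPM in OKS+FoxO6, day 0 included. The fibroblast markers summed to between 2882 and 8863 TPM over all libraries, and the 10 leukocyte markers to between 14.1 and 58.4 TPM. With 1 library per arm and day a difference on a single day has no replicate check, and the intervals given for ratios of reads are 95% intervals of counting error only. The tests over days described below use the spread between these 10 libraries, and nothing in the labels says that the days of an arm came from separate infections.

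On the genome (GRCm38) the members form 2 pairs of neighbours and 4 genes on their own. Psmb9 (chr17:34181987-34187764, minus strand) and Psmb8 (chr17:34197721-34201454, plus strand) lie in the MHC region 9956 bp apart, with the peptide transporter gene Tap1 between them and overlapping the Psmb9 gene by 212 bp. Psme1 (chr14:55578123-55581529, plus strand) and Psme2 (chr14:55587441-55591113, minus strand) are 5911 bp apart. Psmb10 (chr8:105935735-105938444), Psmb5 (chr14:54614119-54618022), Psmb6 (chr11:70525367-70527858) and Psmb7 (chr2:38588036-38644087) lie apart from these pairs. RefSeq promoter windows, 250 bases before to 50 bases after a gene's start, were given for 7 of the 8 members. They were searched on both strands for the interferon gamma activated site TTCNNNGAA, the core of the interferon-stimulated response element, which is a pair of GAAA blocks with 2 bases of any kind between them, and the forkhead core GTAAACA. The search found 1 match in each of 2 windows. The stretches below show both matches in capitals, read along the gene.
Psmb8, chr17:34198088-34198117, plus strand: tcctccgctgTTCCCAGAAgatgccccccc
Psme1, chr14:55578493-55578522, plus strand: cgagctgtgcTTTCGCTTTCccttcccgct
The capitals in Psmb8 are an interferon gamma activated site that begins 97 bases before the RefSeq start, and those in Psme1 are the response element core on the opposite strand, 9 to 18 bases after the start. GENCODE places both stretches in the 5′ UTR of the opening exon of an annotated transcript. Of all 32851 mouse promoter windows, 8.3% held the activated site, 3.44% the response element core and 3.65% the forkhead core. The windows of Psmb9, Psmb10, Psmb5, Psmb6 and Psme2 held none of these letters, and the window of Psmb9 shares 275 bases with that of Tap1. A match describes the letters only, and binding was not measured here.

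In OKS+DR, Psmb8 and Psmb9 went from 0 reads at day 0 to 318 and 139 TPM at day 5 and Psmb10 from 14.4 to 111 TPM, while on each day from day 3 on all 3 were lower in OKS+FoxO6. The constitutive subunits, in contrast, were called neither between the arms nor over the days. Because the labels name MEFs and the assay is bulk, fewer cells with an immunoproteasome and less of its RNA per cell cannot be told apart.

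Psmb8 encodes β5i, which carries the chymotrypsin-like site of the immunoproteasome. Its level in OKS+DR was 0, 7.0, 84.4, 318 and 243 TPM at days 0, 1, 3, 5 and 7, from 0, 4, 62, 240 and 260 reads. In OKS+FoxO6 it was 4.84, 1.62, 1.97, 32.0 and 41.1 TPM on the same days, from 4, 1, 3, 32 and 42 reads. Every OKS+DR library from day 3 on lay above every OKS+FoxO6 library, and the libraries of days 0 and 1 were low in both arms. Scaled to library size, the OKS+DR library held 28.1-fold more Psmb8 reads than the OKS+FoxO6 library at day 3 (9.17 to 140), 11.5-fold more at day 5 (7.96 to 17.3) and 5.19-fold more at day 7 (3.74 to 7.37). The day 0 library of OKS+DR had no read, and against a floor of 3 reads in that library the level at day 5 was at least 66.9-fold higher. From day 5 to day 7 in OKS+DR the reads stood at 0.799 of their day 5 level (0.668 to 0.956). In OKS+FoxO6 the day 7 library held 14.6-fold more reads than the day 0 library (5.28 to 55.9), and the TPM ratio of the same step was 8.5. The fold of day 3 rests on 3 reads in OKS+FoxO6, and as a TPM ratio it was 42.8.

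Psmb9 encodes β1i, the subunit whose gene faces Tap1. It was listed at 0 in OKS+DR at days 0 and 1 and at 20.1, 139 and 125 TPM at days 3, 5 and 7. In OKS+FoxO6 it read 0.70, 1.69, 2.77, 10.9 and 12.9 TPM, with 1 read in each of the libraries of days 0, 1 and 3. The arms did not overlap from day 3 on. The OKS+DR library held 29.9-fold more reads at day 3 (4.83 to 1233, from 22 reads against 1), 13.3-fold more at day 5 (7.63 to 25.1) and 7.86-fold more at day 7 (4.69 to 14.1). With 1 read in OKS+FoxO6 the fold of day 3 is poorly fixed, and as a TPM ratio it was 7.24. Against a floor of 3 reads at day 0, the OKS+DR level at day 5 was at least 33.7-fold higher.

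Psmb10 encodes β2i, the trypsin-like subunit of the immunoproteasome, and differed from the other two in having a measurable level at the start. In OKS+DR it stood at 14.4, 13.4, 53.5, 111 and 96.7 TPM over the 5 days, and in OKS+FoxO6 at 21.4, 35.8, 13.9, 39.1 and 35.3 TPM. In TPM, OKS+DR was above every OKS+FoxO6 library from day 3 on and below the OKS+FoxO6 library of the same day at days 0 and 1. In reads scaled to library size (CPM), OKS+DR was the higher arm at day 0, with 9.74 against 6.58, and its day 3 library (24.0) was no higher than OKS+FoxO6 at day 7 (24.8). Its reads were 3.40-fold higher in OKS+DR at day 3 (1.78 to 6.83), 3.62-fold at day 5 (2.35 to 5.71) and 1.90-fold at day 7 (1.28 to 2.86), while the intervals of days 0 and 1 included 1. From day 0 to day 5 it was 5.55-fold higher in OKS+DR (2.93 to 11.6), and from day 0 to day 7 its reads were 3.76-fold higher in OKS+FoxO6 (1.99 to 7.52). As TPM ratios these steps were 7.71 and 1.65, so the size of the second depends on the scale used.

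**Figure D1:**
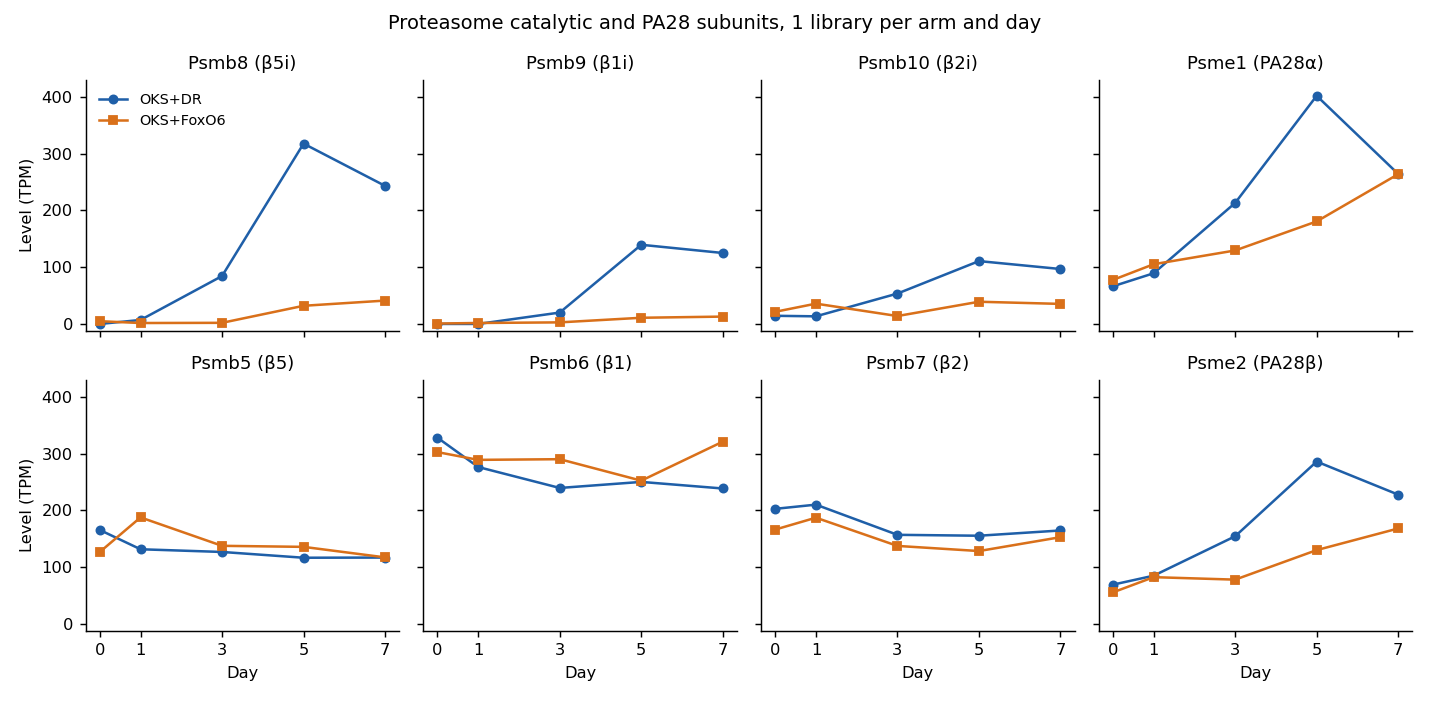
Level of each of the 8 genes in TPM (vertical axis, the same linear scale in all panels) against day, with 1 point per library for OKS+DR (blue circles) and OKS+FoxO6 (orange squares). Psmb8 reached 318 TPM at day 5 in OKS+DR and 32.0 TPM in OKS+FoxO6, whereas Psmb5, Psmb6 and Psmb7 stayed between 117 and 328 TPM.

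The PA28 subunits were present in every library and were higher at the later days in both arms. Psme1, the α subunit of the ring, stood at 66.3, 89.2, 213, 402 and 264 TPM in OKS+DR and at 77.5, 105, 129, 181 and 264 TPM in OKS+FoxO6. The OKS+DR library was higher at days 3 and 5, by 1.66-fold (1.31 to 2.12) and 2.35-fold (1.95 to 2.85) in reads, and at day 7 both arms had the same level. Psme2, the β subunit, stood at 69.2, 85.0, 154, 286 and 228 TPM in OKS+DR and at 55.6, 82.4, 78.1, 130.1 and 168 TPM in OKS+FoxO6. It was 2.12-fold higher in OKS+DR at day 3 (1.54 to 2.95) and 2.27-fold higher at day 5 (1.78 to 2.90), while the interval of day 7 included 1. From day 0 to day 7 in OKS+FoxO6 Psme1 was 3.83-fold higher (2.995 to 4.94) and Psme2 3.25-fold (2.35 to 4.54). At day 7 Psme1 in OKS+FoxO6 thus stood at its OKS+DR level, whereas Psmb8 stood at 41.1 against 243 TPM. The retrogene copy Psme2b on chromosome 11, which could share reads with Psme2, had at most 7.42 TPM.

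The constitutive subunits had levels above 100 TPM in all 10 libraries. Psmb5, which carries the chymotrypsin-like site of the standard proteasome, stood at 166, 132, 127, 117 and 117 TPM in OKS+DR and at 127, 188, 138, 136 and 117 TPM in OKS+FoxO6. Psmb6, with the caspase-like site, was the most abundant of the 3, at 328, 276, 239.5, 250.1 and 239 TPM in OKS+DR and at 303, 289, 290.1, 252 and 321 TPM in OKS+FoxO6. Psmb7, with the trypsin-like site, stood at 203, 210.1, 157, 155 and 165 TPM in OKS+DR and at 166, 187, 137, 128 and 153 TPM in OKS+FoxO6. For each of them the ranges of the arms overlapped. From day 0 to day 3 in OKS+DR the reads stood at 0.668 of their day 0 level for Psmb5 (0.484 to 0.921), 0.646 for Psmb6 (0.508 to 0.820) and 0.678 for Psmb7 (0.530 to 0.867). At day 7 the OKS+FoxO6 library held 1.49-fold more Psmb6 reads than the OKS+DR library (1.22 to 1.84). The OKS+DR library held more at day 0 for Psmb5, 1.45-fold (1.08 to 1.94), and Psmb7, 1.35-fold (1.08 to 1.68), and less Psmb5 at day 1, at 0.714 of the OKS+FoxO6 reads (0.533 to 0.952). The highest of the 10 libraries was 1.61 times the lowest for Psmb5, 1.38 times for Psmb6 and 1.64 times for Psmb7. Annotated processed pseudogenes of Psmb5, Psmb6 and Psmb7 that could share reads had at most 2.05 TPM.

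The order of the levels changed with the day. At day 0 both arms had Psmb6, Psmb7 and Psmb5 on top, then the PA28 subunits, then Psmb10, with Psmb8 and Psmb9 last. In OKS+DR these last were tied at 0. At day 5 in OKS+DR the order was Psme1, Psmb8, Psme2, Psmb6, Psmb7, Psmb9, Psmb5 and Psmb10. At day 5 in OKS+FoxO6 it was Psmb6, Psme1, Psmb5, Psme2, Psmb7, Psmb10, Psmb8 and Psmb9, with the 3 immunoproteasome subunits still at the bottom. Among neighbours in the order for OKS+DR at day 5, Psmb9 (139 TPM), Psmb5 (117 TPM) and Psmb10 (111 TPM) lay close together, and with 1 library their order has no check.

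The balance of both kinds was measured within each library, so that library size drops out, as the summed TPM of Psmb8, Psmb9 and Psmb10 over that of Psmb5, Psmb6 and Psmb7. In OKS+DR the ratio was 0.0206, 0.0330, 0.302, 1.09 and 0.894 at days 0, 1, 3, 5 and 7. In OKS+FoxO6 it was 0.0452, 0.0588, 0.0330, 0.159 and 0.151. At day 5 in OKS+DR the inducible subunits held 58.6% of the reads of the 6 genes (54.9 to 62.1, exact binomial), against 14.9% in OKS+FoxO6 (11.9 to 18.2). The numerator carried this, since the summed inducible level ran from 14.4 to 568 TPM in OKS+DR and from 18.7 to 89.4 TPM in OKS+FoxO6. The summed constitutive level stayed between 517 and 696 TPM in all 10 libraries. The ratio was 9.14-fold higher in OKS+DR at day 3, 6.85-fold at day 5 and 5.91-fold at day 7, and it was 2.19-fold and 1.78-fold higher in OKS+FoxO6 at days 0 and 1, where the inducible subunits had 11 to 22 reads in all. As read ratios with no length term these early values lay closer, at 0.0284 in OKS+DR against 0.0340 in OKS+FoxO6 at day 0 and 0.0342 against 0.0472 at day 1. The mean log2 difference over the 5 days, OKS+FoxO6 minus OKS+DR, was -1.31 ± 2.11 (SD, n = 5), and an exact two-sided sign-flip permutation test gave p = 0.25. With 5 days this test cannot go below 0.0625.

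**Figure D2:**
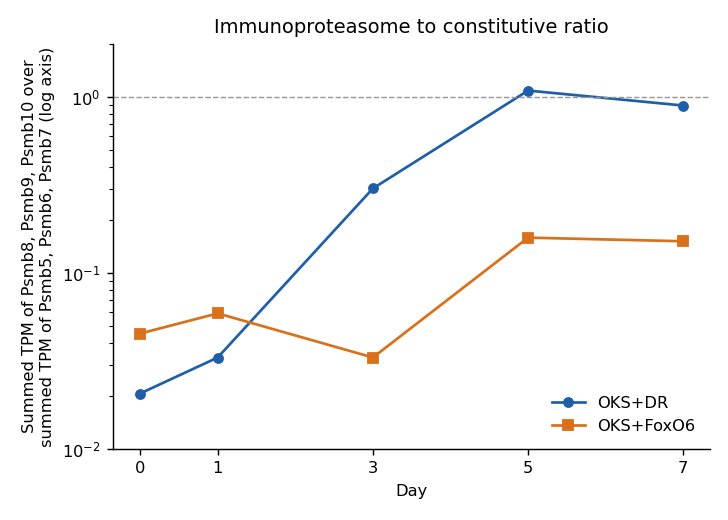
Summed TPM of Psmb8, Psmb9 and Psmb10 over summed TPM of Psmb5, Psmb6 and Psmb7 (log axis) against day, 1 point per library, with a dashed line at equal levels. OKS+DR (blue circles) went from 0.0206 at day 0 to 1.09 at day 5, and OKS+FoxO6 (orange squares) lay above it at days 0 and 1 and below it from day 3 on.

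The 3 replacement pairs did not reach the same balance. In OKS+DR at day 5 Psmb8 stood at 2.72 times Psmb5 (2.05 to 3.62), Psmb9 at 0.557 times Psmb6 (0.429 to 0.719) and Psmb10 at 0.712 times Psmb7 (0.524 to 0.962), all as TPM ratios with counting intervals. Only the pair of Psmb8 and Psmb5 crossed 1 in any library, at days 5 and 7 of OKS+DR. At day 7 in OKS+DR the ratios were 2.08, 0.524 and 0.588. In OKS+FoxO6 at day 7 they were 0.351 (0.237 to 0.514), 0.0403 and 0.231, and the interval of each pair lay below that of OKS+DR on the same day. The makeup of the inducible sum moved as well. Psmb10 was all of it at day 0 and 19.5% at day 5 in OKS+DR, where Psmb8 then made up 55.9%. In OKS+FoxO6 Psmb10 was 79.4% at day 0, 47.7% at day 5 and 39.5% at day 7.

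**Figure D3:**
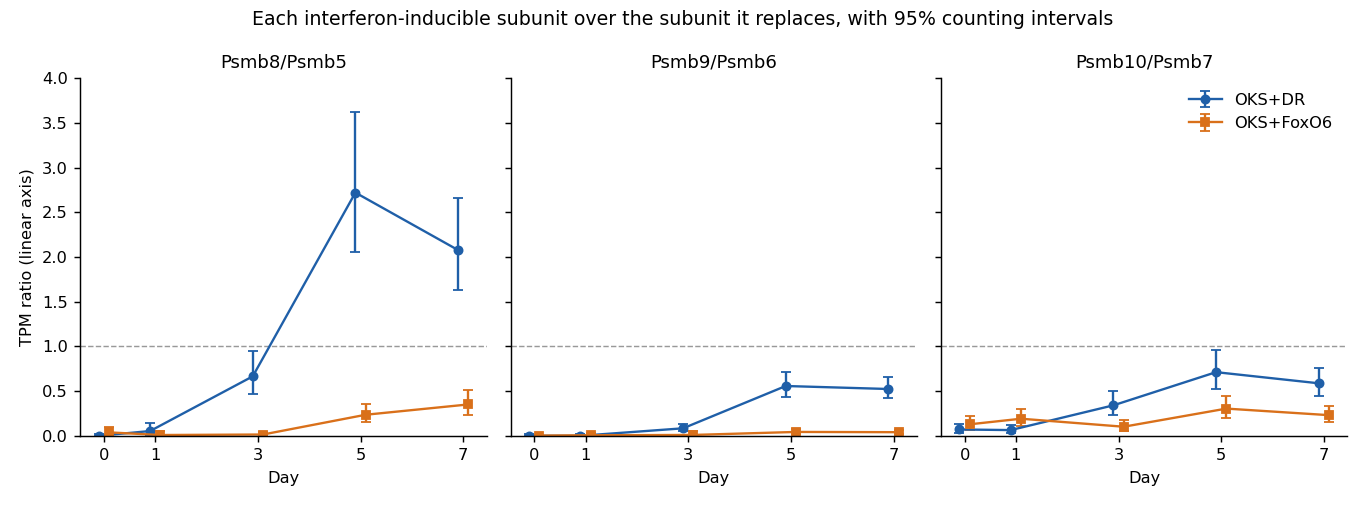
TPM ratio of each inducible subunit to the constitutive subunit it replaces (linear axis) against day, with 95% counting intervals as bars and a dashed line at 1. The Psmb8 to Psmb5 ratio in OKS+DR reached 2.72 at day 5, and the other pairs and all OKS+FoxO6 libraries stayed below 1.

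A shift between the arms, fitted as a single value for the 5 days, was tested with edgeR's quasi-likelihood test on the rounded counts of 10977 genes. The fit had a term for each day, and p-values were adjusted by Benjamini-Hochberg. It does not ask whether the arms differed alike on each day. At days 0 and 1 Psmb8 and Psmb9 had 4 reads or fewer in every library, so their shifts rest on days 3, 5 and 7. All 8 members passed the filter on low counts. Psmb8 and Psmb9 passed it only through the later libraries in which they are high, so their calls in this test are a description. Of the 8, 3 were lower in OKS+FoxO6 at an adjusted p under 0.05 and 0 were higher, where 7.13% of all genes tested were lower and 6.93% higher. The log2 shift was -3.28 for Psmb9 (SE 0.44, adjusted p = 0.000862), -2.98 for Psmb8 (SE 0.43, adjusted p = 0.00135) and -0.66 for Psme2 (SE 0.18, adjusted p = 0.0344). Psmb10 had a shift of -0.997 (SE 0.34, adjusted p = 0.0731) and Psme1 one of -0.33 (SE 0.22, adjusted p = 0.366). The constitutive subunits had shifts of 0.06 for Psmb5, 0.11 for Psmb6 and -0.23 for Psmb7, with adjusted p-values of 0.845, 0.685 and 0.271 and SEs between 0.12 and 0.16. The median shift of all genes was -0.02. Psmb8 and Psmb9 are labelled in the study's own scatter plots of these libraries, so their direction is not independent evidence.

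Some of these calls depended on the fit. Without the day term Psmb8, Psmb9 and Psme2 had adjusted p-values of 0.268, 0.237 and 0.474 at log2 shifts of -2.996, -3.35 and -0.69. DESeq2 gave Psmb8 a shift of -2.51 with an adjusted p of 0.0747 and Psmb9 one of 3.2e-09. Psme2 was not called without day 3 (log2 shift -0.537, adjusted p = 0.155) or day 5 (-0.495, adjusted p = 0.187). Psmb8 and Psmb9 were above the filter's minimum count in too few libraries to be tested once day 5 or day 7 was left out. The shift of Psme1, not called in either case, was -0.066 without day 5 and -0.498 without day 7. Psmb10 was called with no filter on low counts, at -0.963 (adjusted p = 0.0027), and without day 1, at -1.32 (adjusted p = 0.0179). It was also called over days 3, 5 and 7 alone, at -1.47 (adjusted p = 0.00898), a subset chosen after its values were seen.

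A change over the days was tested as the 4 day terms of the same fit, with the arm as a factor. The fit gives both arms the same course, so this test does not ask whether each arm changed or whether they changed alike. The change was called for 5 of the 8 members, namely all 3 inducible subunits and both PA28 subunits. Of all genes tested, it was called for 19.6%. Psmb8 and Psmb9 entered this test only through the later libraries in which they are high, so their calls are a description. The range of the fitted day terms was 6.84 for Psmb9, 5.77 for Psmb8, 2.06 for Psmb10, 1.91 for Psme1 and 1.62 for Psme2 on the log2 scale, with adjusted p-values of 0.000371, 0.000509, 0.0367, 0.00531 and 0.00438. For Psmb5, Psmb6 and Psmb7 it was 0.35, 0.47 and 0.51, with adjusted p-values of 0.644, 0.441 and 0.184, below the median range of 0.73 over all genes. The ranges of Psmb8 and Psmb9 include libraries with no read and depend on how such libraries are handled.

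Whether the difference between the arms grew with the day number was tested as a slope. This was called for 0 of the 8 members by edgeR's quasi-likelihood test, at adjusted p-values of 0.29 or more, and for 1.98% of all genes. DESeq2 called 0 of 8 as well, and 126 of the 8636 genes to which it gave an adjusted p. The unadjusted p was under 0.05 for 0 of 8 in both. Of the 10977 genes fitted, it was under 0.05 for 2068 in edgeR (18.8%) and for 928 in DESeq2. With days 3, 5 and 7 set against days 0 and 1 in place of the day number, a split chosen after the values were seen, the difference between the arms for Psmb9, Psmb10, Psmb8 and Psme1 had log2 estimates of -6.52, -1.65, -3.06 and -0.80. Those of Psmb9 and Psmb8 depend on how their libraries without a read are handled. No member was called there either, at adjusted p-values of 0.40 to 0.56 for these 4, and the unadjusted p was under 0.05 for 2 of the 8, Psmb9 and Psmb10, against 9.01% of all genes. That the arms differed more at the later days is thus seen in the values of each day but did not pass the test of the difference.

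Day by day, a gene was counted as 2-fold different when log2(TPM + 1) differed by more than 1, with no test, among 14837 genes with a mean of at least 1 TPM. At day 0, 1 member was higher in OKS+FoxO6 (Psmb8, 4 reads against 0), where 10.4% of all genes were higher and 6.32% lower. At day 1, Psmb9 and Psmb10 were higher and Psmb8 lower, where 7.95% of genes were higher and 9.33% lower, and the interval of each of these read ratios included 1. At day 3 the 3 inducible subunits were lower in OKS+FoxO6, where 11.7% of genes were lower and 8.16% higher. At day 5 the same 3 and both PA28 subunits were lower, 5 of 8 members, where 11.4% of genes were lower and 10.2% higher. At day 7 the 3 inducible subunits were lower, where 16.3% of genes were lower and 8.25% higher, and with CPM in place of TPM 2 members were past 2-fold. No constitutive subunit differed by 2-fold on any day.

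The rest of the proteasome was not called either. None of the 11 other subunits of the 20S core, none of the 18 genes of the 19S regulatory particle that unfolds substrates, and none of the 5 assembly chaperones, Pomp among them, was called in the shift between the arms or over the days by edgeR, and DESeq2 called 0 of them as well. Of all genes, edgeR called 7.13% lower, 6.93% higher and 19.6% over the days, and DESeq2 called 1179 of 10977 in the shift and 2040 over the days. At an unadjusted p under 0.05 edgeR's shift counted 0 genes of these groups, against 3075 of all 10977 genes, and the days test counted 1 of the 11, 4 of the 18 and 0 of the 5, against 3620 of all genes. The assembly genes Psmg1 and Psmg4 had shifts of -0.38 and -0.44 (adjusted p = 0.374 and 0.309), and both were past 2-fold lower in OKS+FoxO6 at day 5 (51.6 against 25.1 and 109 against 49.0 TPM), the day on which 11.4% of all genes were. Psma3, which had the most positive shift of the core, had a value of 0.19 (adjusted p = 0.398), and Psmc5, the most negative of the regulatory particle, had one of -0.21 (adjusted p = 0.458). Of the other activators and the inhibitor, Psme3 (PA28γ), Psme4 (PA200) and Psmf1 (PI31), 0 of 3 were called, with Psme4 at 0.37 (adjusted p = 0.12, unadjusted p = 0.0267 in edgeR's fit). Psmb11, the catalytic subunit of the thymus, had at most 0.58 TPM.

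Genes that work with the immunoproteasome in class I presentation were lower in OKS+FoxO6 in part. Of 11 genes for peptide loading and class I molecules, 3 were called lower and 0 higher, against 7.13% and 6.93% of all genes, with a list median of -0.86 against -0.02 for all genes. Over the days 7 of 11 were called, against 19.6% of all genes. DESeq2 called 3 in the shift and 7 over the days as well, against 1179 and 2040 of all 10977 genes. The log2 shift was -2.21 for Tap1, the peptide transporter (adjusted p = 0.000644), -1.56 for H2-K1, a class I heavy chain (adjusted p = 0.00948), and -1.05 for the tapasin relative Tapbpl (adjusted p = 0.0375). Tap1 stood at 6.43, 12.3, 131, 291 and 194 TPM in OKS+DR and at 3.19, 8.52, 15.5, 44.7 and 41.8 TPM in OKS+FoxO6. B2m, the class I light chain, had a shift of -0.40 (adjusted p = 0.361) and reached 5504 TPM in OKS+DR at day 5 and 2768 TPM in OKS+FoxO6 at day 7. The general chaperones of the endoplasmic reticulum on the list were not called in either test.

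**Figure D4:**
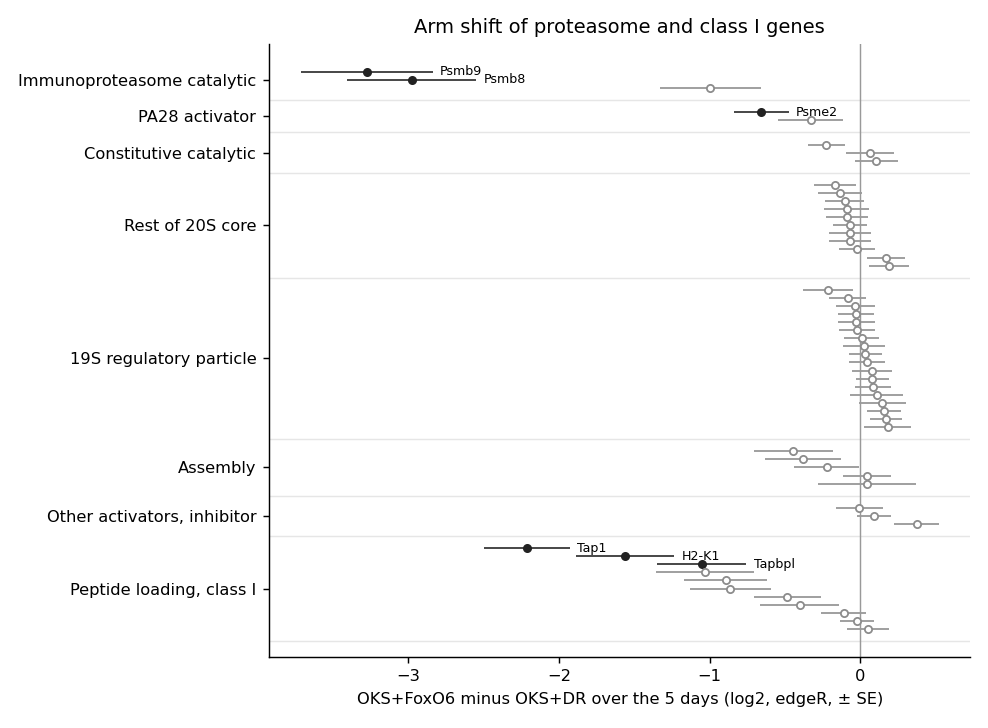
Shift between the arms over the 5 days (horizontal axis, log2, OKS+FoxO6 minus OKS+DR, edgeR estimate ± SE) for the proteasome and class I genes, 1 point per gene and grouped by role. Filled points have an adjusted p under 0.05, and they are Psmb9, Psmb8, Psme2, Tap1, H2-K1 and Tapbpl, while the rest of the core and the regulatory particle lies around 0.

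The inducible subunits are known targets of interferon gamma signalling, which runs from the receptor through Jak kinases to transcription factors such as Irf1, with Nlrc5 as the class I transactivator. Of 9 such genes tested, 2 were called lower in OKS+FoxO6 and 0 higher, against 7.13% and 6.93% of all genes, and 5 were called over the days, against 19.6%. DESeq2 called 1 in the shift and 4 over the days, against 1179 and 2040 of all 10977 genes. The log2 shifts were -3.05 for Nlrc5 (adjusted p = 0.00328) and -1.80 for Irf1 (adjusted p = 0.00258) in edgeR. Irf1 stood at 13.7, 30.7, 95.01, 155 and 81.7 TPM in OKS+DR and at 11.8, 15.7, 9.89, 48.4 and 34.0 TPM in OKS+FoxO6, so that the arms overlapped at the early days and lay apart from day 3 on. The receptor gene Ifngr1, the chain that binds the ligand, had a shift of 0.07 (adjusted p = 0.856). Of the 5 interferon genes on the list, Ifnb1, Ifna4, Ifnl2 and Ifnl3 were listed at 0 in all libraries, and Ifng had 1 read in 1 library. Irf1 is labelled in the study's scatter plots of these libraries, and the counts are no independent support of the direction.

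Over the 10 libraries, the genes whose log2(TPM + 1) went most closely with the log2 ratio of inducible to constitutive subunits, among 11414 genes with a mean of at least 5 TPM, were Dapp1 (Pearson r = 0.983), Tgtp2 (0.982), Tnfrsf1b (0.982), Gbp6 (0.981) and Rxra (0.98). Gbp6 and Tgtp2 are interferon-inducible GTPases, and Tnfrsf1b is a receptor for tumour necrosis factor. B2m ranked 24, Tap1 52, the epithelial marker Epcam 75, Irf1 113, Cdh1 155 and Tap2 681 in this order. Among the members, Psmb8 and Psmb9 had r = 0.931, Psme1 and Psme2 r = 0.961, and Psmb8 and Psmb5 r = -0.773. These values describe 10 libraries that share the 2 time courses and say nothing about a common control.

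Other cell markers differed between the arms beside these genes. The epithelial markers Cdh1, Epcam and Krt8 were called lower in OKS+FoxO6 by edgeR, 3 of 3 tested where 7.13% of all genes were lower, and DESeq2 called 2 of 3. The list summed to 11.2 to 608 TPM in OKS+DR and to 3.1 to 132 TPM in OKS+FoxO6. The pluripotency markers, none of which passed the filter, summed to 0.8 to 246 TPM and to 0.0 to 33.1 TPM. The leukocyte markers summed to 14.1 to 58.4 TPM and to 19.5 to 29.4 TPM. Cd68 was 56.3% to 94.9% of the sum, with 7.95, 52.0, 52.6, 20.1 and 18.5 TPM over the days in OKS+DR and 15.8 to 24.4 TPM in OKS+FoxO6. Lyz2 reached 6.17 TPM, and 5 of the 10, among them the defining markers Ptprc and Csf1r at 0.60 TPM or less, stayed below 1 TPM in every library. The endothelial genes Tek and Kdr were called higher in OKS+FoxO6 by edgeR, 2 of 2 tested where 6.93% of all genes were higher, and DESeq2 called 1 of 2, with Pecam1 and Cdh5 at 5.73 TPM or less. The fibroblast markers had 1 of 8 called higher (Pdgfra) and 1 lower (Col3a1) by edgeR, and DESeq2 called 3 of 8 in either direction. Beside each of these DESeq2 counts stand the 1179 of all 10977 genes that it called in either direction. Over the days edgeR called 7 of the 8 fibroblast markers and 3 of the 3 epithelial markers tested, beside 19.6% of all genes. Col1a1 went from 1354 TPM at day 0 to 98.2 TPM at day 7 in OKS+DR. The part of the epithelial, pluripotency, leukocyte and endothelial markers in the differences of the proteasome subunits was not tested.

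The estimated length behind the TPM moved for the genes with few reads. RSEM's effective length of Psmb8 ran from 749 to 1565 bases between libraries, that of Psmb9 from 369.6 to 1511 and that of Psmb10 from 594 to 1202, as its estimate of the isoforms differed. Without a length term, the ratio of inducible to constitutive reads was 1.41 at day 5 and 1.13 at day 7 in OKS+DR and 0.175 and 0.214 in OKS+FoxO6.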

How the data were processed

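Bulk RNA-seq of 10 libraries was used, 1 per arm and day, grouped by the sample titles. Per the study's methods and the submitters' processing notes, the authors aligned reads with Bowtie2 and RSEM to GENCODE M13 (mm10). The deposited expected counts are RSEM estimates that were not normalized, and the deposited TPM values are RSEM's as well. The labels name a VAHTS mRNA-seq kit and the methods a TruSeq kit. Versions of the aligner are not given in the sources used here. Expected counts were rounded and fitted with edgeR 4.0.16 in R 4.3.3 (TMM, filterByExpr, quasi-likelihood, Benjamini-Hochberg over all genes tested), with DESeq2 1.42.0 as an alternative. Levels were compared as log2(TPM + 1) with a pseudocount of 1. The other values came from scipy 1.17.1, pandas 2.3.3 and numpy 2.4.6 in Python 3.11.15, with plots from matplotlib 3.10.9. Intervals are exact binomial ones on reads at 95%. The fits were run on simulated data with known changes, of which the slope recovered fewer than the shift or the days test did. Genes were placed by GENCODE M21 (GRCm38), and promoter windows are from RefSeq (GRCm38.p6).

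Totals per library lay between 1208379 and 2225750 counts, and a fold against a library with no read is given as a bound against 3 reads. The members, gene lists and tests were chosen with earlier results of these data known. Named genes are the 8 members, at most 4 genes of each list picked by size of difference or role, Foxo6, and the 5 genes closest to the ratio in Pearson correlation. The interferon genes, all 5, Tap2 and the copy Psme2b were named outside this rule. The alternatives were other size factors, no filter, DESeq2, no day term, log2(day + 1), each day left out, a pseudocount of 0.1, CPM with a prior count of 2, and other forms of the ratio. Days 3, 5 and 7 alone, TMM without interferon and class I genes, and the split of early and late days were chosen after seeing the data. Some genes are not reported here.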

Additional observations from a re-analysis of the deposited data

How the results depend on the processing

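The shift between the arms was called for 1544 genes, for 168 without the day term (124 higher and 44 lower), and for 663 to 1569 with a day left out, 663 without day 5 and 705 without day 3. The change over the days was called for 2152 genes and for 3816 with no filter. The slope was called for 217 genes, for 628 with no filter, 126 by DESeq2, 110 with log2(day + 1), 80 to 233 with a day left out and 6 with late against early days. For the members, 73 of the 84 alternative shifts, and all 24 for the days, kept their direction and their side of the threshold. Of the shifts, 6 lost the call, 3 gained it and 2 changed sign. The sign changes were of uncalled values, Psmb5 (-0.0405 to 0.219 with a day left out) and Psmb6 (-0.0171 to 0.203). The slope of Psmb8, not called, changed sign by DESeq2 (-0.45), with log2(day + 1) (-0.53), with late against early days (-3.06) and without day 3 (-0.19 to 0.46 with a day left out), and so did those of Psmb9 (-0.33 to 0.14), Psmb5 (-0.0492 to 0.0977) and Psme2 (-0.195 to 0.0225) with a day left out. The members counted past 2-fold were 2 in place of 1 at day 0 with a pseudocount of 0.1, and with CPM 1 in place of 3 at day 1, 4 in place of 3 at day 3 and 2 in place of 3 at day 7. The cause of these changes was not tested. The log2 difference of the ratio ran from -1.93 to -0.84 with a day left out and stayed below 0 under the other forms (-1.58 to -0.88), in a design that cannot pass 0.05.

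The arms were paired by day, as a factor in the fits and in the sign-flip test. No pairing by replicate number was possible because the labels give none. The counts are low. The inducible subunits had 11 to 22 reads per library at days 0 and 1, and the intervals of their read ratios between the arms included 1 on those days. TMM without the interferon and class I genes moved no shift of a member by more than 0.0012 on the log2 scale.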
